A study of Homo sapiens with 4 samples.

Results

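Cells enter mitosis when cyclin B activates the kinase CDK1, and they leave it when the anaphase-promoting complex (APC/C), a ubiquitin ligase, marks cyclin B and securin for destruction. Between these steps the spindle checkpoint holds the APC/C back until every kinetochore, the protein platform on the centromere, is attached to microtubules. Many genes of this machinery are transcribed late in the cell cycle from promoters that carry a cell cycle homology region (CHR), which is read by the MuvB complex with B-MYB (MYBL2) and FOXM1, or by the repressive DREAM complex in resting cells. The genes described here are 59 genes of mitotic entry, checkpoint, kinetochore, spindle, chromosome structure and cytokinesis, taken by symbol from the 20804 genes of the deposited table. All 59 were found, and all stood at 1 FPKM or more in all 4 libraries, so each was tested. FPKM is a count of fragments scaled for transcript length and library size.

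The cells were MDA-MB-231, an established human line of triple-negative breast cancer, a type that lacks both steroid hormone receptors and HER2. Bulk RNA sequencing covered 2 libraries whose genotype label is miR-3662 knockout (KO) and 2 wild-type libraries (WT), with no treatment, time or clone named. The sample labels do not give the way in which KO cells were made. Since the title names CRISPR interference and activation, and the design describes sorting on miR-3662 activity, the meaning of KO is uncertain. Separate cultures are not stated within a group either, so a p-value reflects no more than the scatter of these libraries, possibly a technical one.

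The FPKM values summed to 528986 and 544650 in KO and to 504102 and 520527 in WT, and across genes the libraries correlated (Spearman) at 0.980 within KO, 0.979 within WT and 0.966 to 0.970 between the groups. VIM, a marker of the mesenchymal-like state of this line, stood at 1120 to 1321 FPKM, ESR1 and CDH1 at 0.03 FPKM or less, and ERBB2 at 8.55 to 11.4 FPKM. The leukocyte genes PTPRC and CD3E were listed at 0 in every library, and CD68, a lysosomal protein gene that tumour lines also express, was at 67.7 and 117 FPKM in KO and 30.2 and 39.0 FPKM in WT. The 3 endothelial genes together stayed at 0.45 FPKM or less. HBP1, the repressor gene named in the series title, was at 8.35 and 9.71 FPKM in KO and 2.97 and 4.66 FPKM in WT (log2 fold change 1.08 ± 0.20, SE, limma adjusted p = 0.0090). In RNA from whole cultures, fewer cells in mitosis and less RNA per cell cannot be told apart.

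The comparison asked how the mitotic genes differed between KO and WT cells. Of the 59 genes, 10 fell and 4 rose in KO, and the other 45 did not pass the test. The genes that fell were CDC25A and PLK1 of mitotic entry, the transcription factor gene MYBL2, CDC20, FBXO5 and ESPL1 of the APC/C and anaphase, CDCA8 of the chromosomal passenger complex, TPX2 and HN1 of the spindle group and the condensin gene NCAPD2. The genes that rose were the kinetochore genes CENPU and SPC25, the spindle gene HMMR and the topoisomerase gene TOP2A. Every change was below 1 on the log2 scale: the fold changes ran from -0.82 for CDC25A to 0.81 for CENPU, whereas 551 (4.68%) of all 11786 tested genes reached 1 in size.

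The test was limma's moderated test on log2(FPKM + 1) over all tested genes, called at a Benjamini-Hochberg adjusted p under 0.05. It called 14 members (23.7%), against 27.0% of all tested genes, so the share of changed members was near the background. By direction, 6.78% of members were called higher, against 16.2% of all genes, and 16.9% were called lower, against 10.8%. The median log2 fold change was -0.074 over the members and 0.074 over all tested genes. With libraries rescaled by the median of ratios, 3 members rose and 12 fell (FOXM1 and NCAPH were added to the falls, and SPC25 left the rises), beside 13.2% of all genes higher and 13.7% lower. KO values lay wholly above WT values in 14 members (23.7%), against 39.3% of all tested genes, and wholly below in 23 (39.0%), against 28.7%, which makes 62.7% of members and 68.0% of all genes in either direction. The calls depended on single libraries. Without the first WT library 9 members (15.3%) rose and 4 (6.78%) fell, against 9.19% and 4.73% of all genes, so that rises were then the larger share. Without the second WT library 0 rose and 5 (8.47%) fell, against 11.8% and 5.26% of all genes. Leaving out the first KO library gave 1 rise (1.69%) and 14 falls (23.7%), against 8.99% and 7.6%, and leaving out the second gave 0 rises and 6 falls (10.2%), against 6.68% and 5.69%. In the fits with 0 rises by limma, 3 members without the second WT library and 6 without the second KO library were higher at an unadjusted p under 0.05. CDC20, CDC25A, MYBL2 and HN1 were called in all 4 of these fits, and SPC25 in none.

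**Figure D1:**
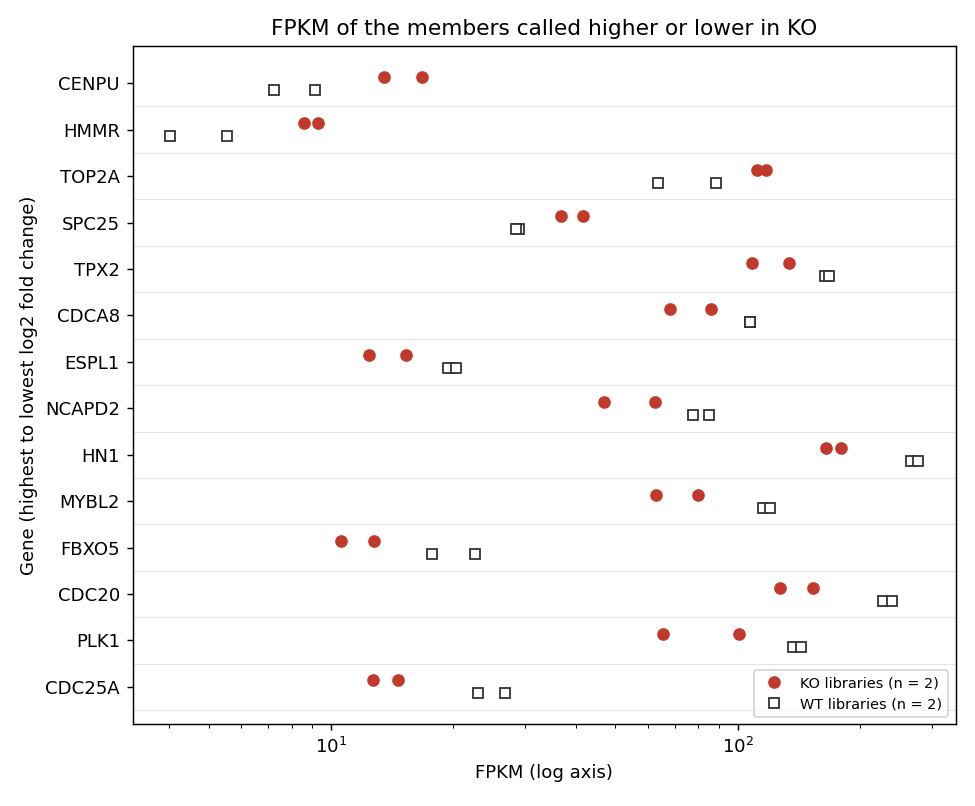
FPKM on a log axis for the 14 called genes, from the highest to the lowest log2 fold change, with filled circles for the 2 KO libraries and open squares for the 2 WT libraries. In each of the 14 genes the KO points lie wholly on one side of the WT points and PLK1 shows the widest gap between its KO libraries (101 and 65.5 FPKM).

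The promoters of these genes, from 250 bases before to 50 after the start (RefSeq, GRCh38.p14), were matched for 48 of the 59 genes. AURKA, BIRC5, BUB3, CDCA2, FOXM1, HMGB2, RACGAP1, TPX2, TTK, UBE2C and WEE1 had no entry. The CHR letters TTTGAA were found on either strand in 32 of the 48 (66.7%), against 9.3% of the 9400 promoters of all tested genes and 15.4% of all 27305 promoters. The variant TTTAAA was in 11 (22.9%), against 7.0% of tested genes, and the NF-Y box CCAAT, read on both strands, in 33 (68.8%), against 37.5%. A CHR or its variant together with a CCAAT box stood in 27 members (56.2%), against 6.3% of promoters of tested genes. The GC-rich word GGCGG, the core of many E2F sites, was in 46 (95.8%), against 88.7%. In 19 members a TTTGAA match began within the last 50 bases before the start. By call, TTTGAA was in 3 of the 4 promoters of genes called higher, 6 of the 9 of genes called lower and 23 of the 35 of genes not called. The CCAAT box was in 4, 7 and 22 of these promoters, and TTTAAA in 0, 1 and 10. With so few promoters of called genes, a difference between these shares cannot be judged.

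Promoters of a pair of genes that fell, a gene that rose and a gene that did not pass are printed as examples. All 4 hold a CHR or its variant and a CCAAT box, which not every called gene does. CDC25A, MYBL2 and FBXO5, which fell, and CENPU, which rose, had neither TTTGAA nor TTTAAA in the window. MYBL2 and FBXO5 had no CCAAT box either. Each line gives the 200 bases before the start, 5′ to 3′ on the strand of the gene, which is the plus strand in all 4, with matches on either strand in capitals, to the CHR (TTTGAA, which reads TTCAAA on the opposite strand), its variant (TTTAAA) and the NF-Y box (CCAAT, opposite strand ATTGG). CDC20 lies at chr1:43358781-43358980, PLK1 at chr16:23678689-23678888, HMMR at chr5:163460432-163460631 and CCNB1 at chr5:69166950-69167149 (GRCh38.p14).
CDC20: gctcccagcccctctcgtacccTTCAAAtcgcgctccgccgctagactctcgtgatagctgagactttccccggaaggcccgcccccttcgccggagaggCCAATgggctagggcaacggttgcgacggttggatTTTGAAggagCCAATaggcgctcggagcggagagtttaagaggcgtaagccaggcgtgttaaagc
PLK1: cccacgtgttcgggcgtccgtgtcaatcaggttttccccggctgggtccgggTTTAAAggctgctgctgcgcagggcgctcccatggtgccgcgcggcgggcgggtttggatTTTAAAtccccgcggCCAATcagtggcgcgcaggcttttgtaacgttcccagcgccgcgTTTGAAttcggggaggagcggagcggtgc
HMMR: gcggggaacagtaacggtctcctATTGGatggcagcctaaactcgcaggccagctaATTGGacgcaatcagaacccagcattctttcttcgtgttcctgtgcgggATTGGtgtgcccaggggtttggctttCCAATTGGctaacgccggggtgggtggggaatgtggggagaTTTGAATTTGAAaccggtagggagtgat
CCNB1: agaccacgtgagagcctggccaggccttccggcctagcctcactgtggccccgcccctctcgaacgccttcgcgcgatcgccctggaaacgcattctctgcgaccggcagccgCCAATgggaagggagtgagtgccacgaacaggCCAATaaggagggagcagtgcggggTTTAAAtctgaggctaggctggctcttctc
CDC20 holds TTTGAA from 65 bases before the start between a pair of CCAAT boxes at 100 and 55 bases. In PLK1 the TTTGAA begins 29 bases before the start, and in CCNB1 a TTTAAA stands at 30 bases. HMMR carries TTTGAA back to back at 28 and 22 bases, with 5 CCAAT matches upstream. A match describes letters in the window and is not evidence of a bound factor.

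Mitotic entry is driven by cyclin B with CDK1, which the CDC25 phosphatases switch on and the WEE1 kinase holds off. CDC25A, the phosphatase that also acts on CDK2 in S phase, stood at 12.7 and 14.6 FPKM in KO and at 26.8 and 23.0 FPKM in WT, and fell by 0.82 ± 0.15 on the log2 scale (SE, limma adjusted p = 0.0078). PLK1, the polo-like kinase that promotes entry and spindle assembly, stood at 101 and 65.5 FPKM in KO and at 137 and 143 FPKM in WT, a fall of 0.78 ± 0.19 (adjusted p = 0.0217). Both KO values of each gene were below both WT values, but the KO libraries of PLK1 differed by 0.61 on the log2 scale, and PLK1 did not pass without the first (adjusted p = 0.0595) or the second WT library (0.0688). The cyclins themselves did not pass. CCNB1 was at 223 and 172 FPKM in KO and 206 and 206 FPKM in WT, so the WT values lay between the KO values (log2 fold change -0.074 ± 0.14). CCNB2 was at 126 and 97.4 FPKM in KO and 120.2 and 118 FPKM in WT (-0.10 ± 0.14), the same order. Of the other entry genes, the phosphatase genes CDC25B (0.20) and CDC25C (-0.15), WEE1 (-0.071), CKS1B (0.19), CKS2 (-0.11) and CDCA3 (-0.17) had smaller differences that did not pass. CKS2, whose product binds CDK1, was the highest of this group by mean FPKM, at 316 and 277 FPKM in KO and 307 and 332 FPKM in WT.

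Both transcription factor genes had lower values in KO. MYBL2, which encodes the activator B-MYB, was at 63.1 and 79.8 FPKM in KO and 116 and 120.2 FPKM in WT, and fell by 0.72 ± 0.14 (limma adjusted p = 0.0096). FOXM1, the forkhead activator of G2 and M phase genes, was at 98.9 and 80.3 FPKM in KO and 115 and 120.2 FPKM in WT, with a log2 fold change of -0.40 ± 0.13 that did not pass (adjusted p = 0.0565). FOXM1 passed after scaling by the median of ratios (adjusted p = 0.0376). Their partners in the MuvB and DREAM complexes, with the E2F and pocket proteins, moved both ways: of 12 tested genes 2 rose, LIN54 (0.57) and MYBL1 (0.71), and 2 fell, E2F4 and TFDP1, beside 16.2% of all genes higher and 10.8% lower. With single libraries left out this list had 0 or 1 rise and 0 or 1 fall. E2F4, the repressor E2F of DREAM, was at 80.9 and 83.2 FPKM in KO and 111 and 110.4 FPKM in WT (-0.43), and did not pass without any single library (limma adjusted p 0.0561 to 0.113). TFDP1, the dimer partner of E2F proteins, was at 70.4 and 73.9 FPKM in KO and 113 and 104 FPKM in WT (-0.58), and did not pass without the first WT library (adjusted p = 0.0661).

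No gene of the spindle checkpoint group passed limma's test, and of the 5 genes MAD2L1 had an unadjusted p under 0.05 (0.049). BUB1, the kinase that recruits checkpoint proteins to kinetochores, was at 57.6 and 34.9 FPKM in KO and 50.4 and 42.0 FPKM in WT, so the KO values enclosed the WT values. MAD2L1, the inhibitor that binds CDC20, was at 49.3 and 50.9 FPKM in KO and 60.4 and 59.9 FPKM in WT (-0.26 ± 0.11, limma adjusted p = 0.119), and BUB3 at 164 and 179 FPKM in KO and 151 and 136 FPKM in WT (0.25 ± 0.11, adjusted p = 0.131). BUB1B was nearly level (-0.0057), and TTK, the MPS1 kinase gene, had a value of 0.34 ± 0.21. Of 8 further checkpoint genes 1 rose and 1 fell, beside 16.2% of all genes higher and 10.8% lower. KNTC1 rose by 0.74, and TRIP13, the ATPase that disassembles checkpoint complexes, fell by 0.52. These 8 genes had 3 rises and 0 falls without the first WT library, and 0 calls without the second WT or the second KO library. The 5 genes therefore ran from -0.26 to 0.34 on the log2 scale. KO values lay wholly above the WT values in 1 gene and wholly below in 1, beside 39.3% and 28.7% of all tested genes.

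All 4 genes of the chromosomal passenger complex, which corrects wrong attachments and guides cytokinesis, had both KO values below both WT values. This order was shared by 28.7% of all tested genes. Of the 4 genes 1 was called lower, beside 10.8% of all tested genes. CDCA8, which encodes borealin, was at 85.7 and 68.0 FPKM in KO and 107 and 107 FPKM in WT, and fell by 0.48 ± 0.13 (limma adjusted p = 0.0343). AURKB, its kinase, was at 100.2 and 100.4 FPKM in KO and 102 and 115 FPKM in WT (-0.11 ± 0.11), BIRC5, which encodes survivin, at 129 and 103 FPKM in KO and 138 and 138 FPKM in WT (-0.26 ± 0.13), and INCENP, the scaffold, at 34.9 and 28.2 FPKM in KO and 38.6 and 40.3 FPKM in WT (-0.32 ± 0.14). The last 3 did not pass. CDCA8 was called in 1 of the 4 fits that leave out a library, the one without the first KO library.

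The centromere and kinetochore group held 2 of the 4 rises and no fall. These were 2 of its 9 genes, beside 16.2% of all tested genes called higher and 10.8% lower. CENPU, a subunit of the inner kinetochore that binds PLK1, was at 13.5 and 16.7 FPKM in KO and 9.12 and 7.26 FPKM in WT, and rose by 0.81 ± 0.17 (limma adjusted p = 0.0138). Leaving out the second WT library gave an adjusted p of 0.0548, and leaving out the second KO library 0.0819, so the call was lost in both. SPC25, a subunit of the microtubule-binding NDC80 complex, was at 36.7 and 41.6 FPKM in KO and 28.99 and 28.42 FPKM in WT, a rise of 0.43 ± 0.13 (adjusted p = 0.0392). The other 3 subunits of that complex did not pass: SPC24 had a log2 fold change of 0.24, NDC80 of 0.076 and NUF2 of 0.053, and NDC80 and NUF2 overlapped between the groups. CENPE, the kinetochore motor, was at 5.35 and 4.14 FPKM in KO and 4.14 and 1.45 FPKM in WT (0.69 ± 0.32), and CENPF at 16.83 and 13.99 FPKM in KO and 13.6 and 6.94 FPKM in WT (0.60 ± 0.27). In both of these genes the second WT library was far below the first, and neither passed. Over the fits that leave out a library, the log2 fold change ran from 0.15 to 1.22 for CENPE and from 0.16 to 1.04 for CENPF, and both were called higher without the first WT library (adjusted p 0.0113 and 0.0161). CENPA, the centromeric histone, was at 47.4 and 26.8 FPKM in KO and 46.1 and 44.8 FPKM in WT (-0.34 ± 0.23), while its loading chaperone HJURP, the highest gene of the group by mean FPKM, was at 53.6 and 49.5 FPKM in KO and 44.8 and 46.6 FPKM in WT (0.17 ± 0.12), and neither passed. Without the first KO library CENPA was called lower (-0.74, adjusted p = 0.0195), and without the second its log2 fold change was 0.061.

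A further 30 genes of centromeres and kinetochores had 4 rises and 2 falls, beside 16.2% of all genes higher and 10.8% lower. Their calls were 0 in both directions without the second WT library and without the second KO library. CENPC, which links centromeric chromatin to the outer kinetochore, was at 3.50 and 4.10 FPKM in KO and 2.12 and 1.57 FPKM in WT, and rose by 0.76. CENPH (0.59) and CENPI (0.58), subunits of the same inner layer, also rose. CENPO, of the same inner complex as CENPU, was at 19.4 and 15.1 FPKM in KO and 28.0 and 28.4 FPKM in WT, and fell by 0.69, and the haspin kinase gene GSG2 fell by 0.46. The subunits of the inner kinetochore that passed thus changed in both directions.

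**Figure D2:**
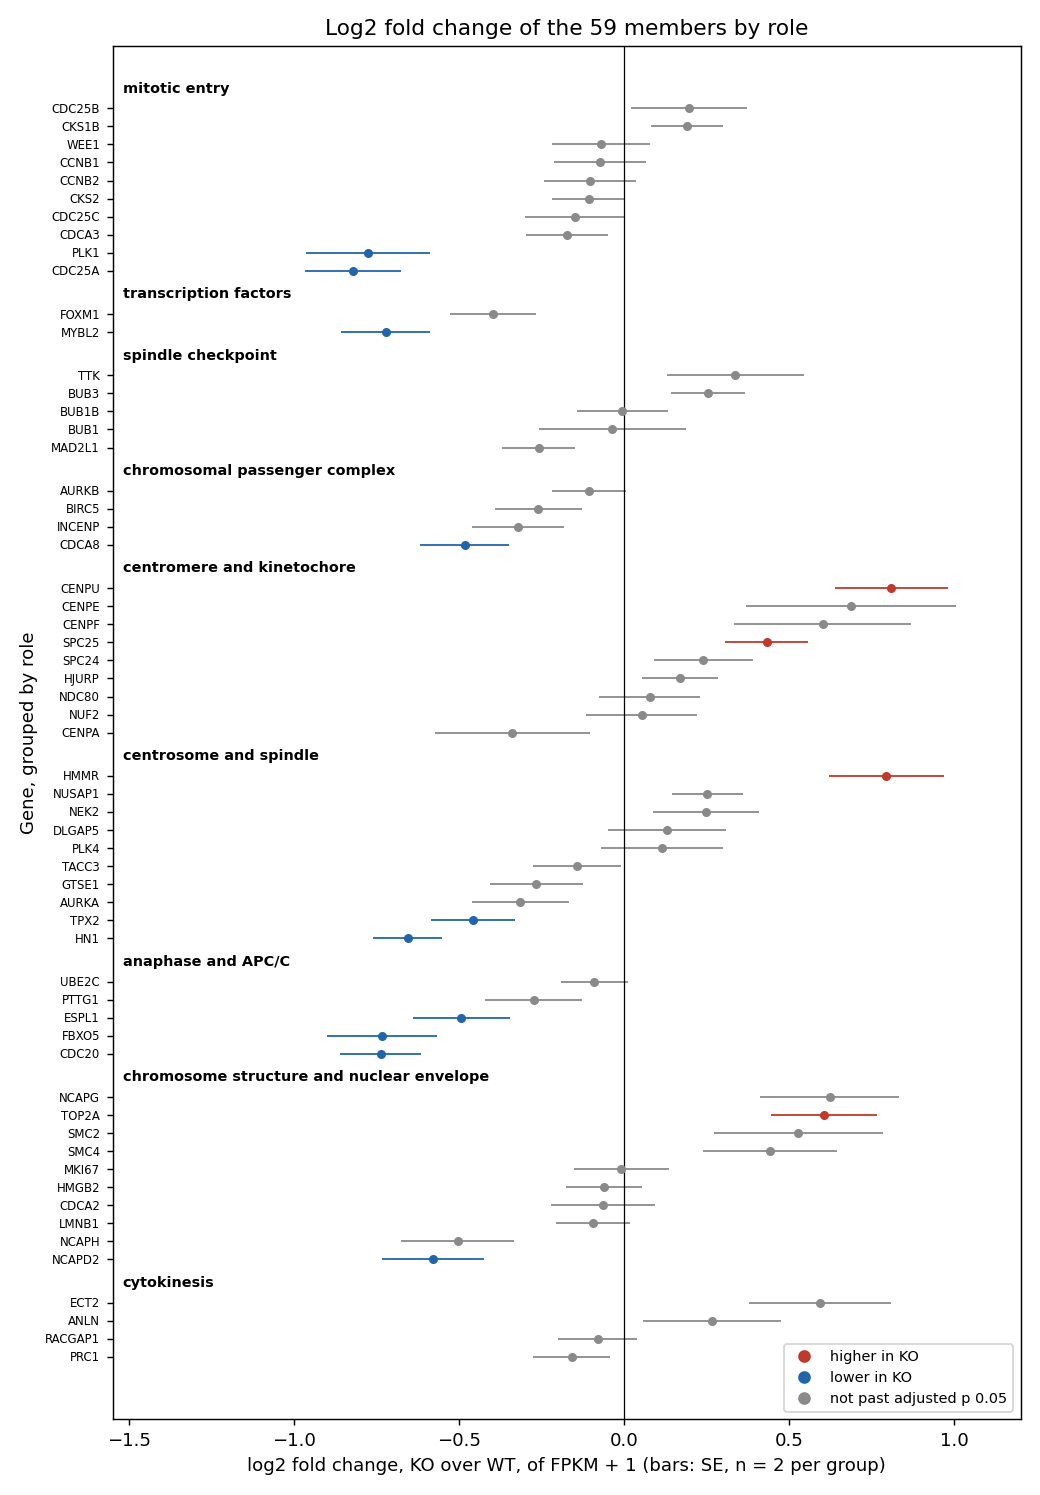
Log2 fold change of FPKM + 1, KO over WT, for each of the 59 genes, grouped by role, with bars of 1 SE (n = 2 libraries per group) and colour for the call. The 5 anaphase and APC/C genes all lie below 0, with UBE2C (-0.091) the nearest to it. In the centromere and kinetochore group 8 of the 9 genes lie above 0, all but CENPA. Scaling by the median of ratios leaves 7 of the 9 above 0 and GC correction 6. The median of all tested genes is 0.074, and NUF2 (0.053) and NDC80 (0.076) lie near it.

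Of the 10 genes of the centrosome and spindle group 1 rose and 2 fell, beside 16.2% of all tested genes higher and 10.8% lower. HMMR, a spindle protein gene also known as a hyaluronan receptor, was at 9.31 and 8.58 FPKM in KO and 5.55 and 4.02 FPKM in WT, and rose by 0.79 ± 0.17 (limma adjusted p = 0.0154). HN1, listed by RefSeq as JPT1, was the most abundant of the group at 179 and 165 FPKM in KO and 266 and 277 FPKM in WT, and fell by 0.66 ± 0.10 (adjusted p = 0.0057). TPX2, which activates Aurora A on the spindle, was at 134 and 108 FPKM in KO and 164 and 168 FPKM in WT, and fell by 0.46 ± 0.13 (adjusted p = 0.0343). AURKA, the Aurora A kinase gene, was at 135 and 101 FPKM in KO and 146 and 146 FPKM in WT, and its log2 fold change of -0.32 ± 0.15 did not pass (adjusted p = 0.146), except without the first KO library. HMMR passed in 1 of the 4 fits without a library, the one without the first WT library, as TPX2 passed without the first KO library alone. The other genes, GTSE1, TACC3, PLK4, DLGAP5, NEK2 and NUSAP1, ranged from -0.27 to 0.25 on the log2 scale.

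Anaphase and APC/C genes had 3 falls among 5 genes and no rise, beside 10.8% of all tested genes lower and 16.2% higher. In all 5 the KO values were below the WT values, an order that 28.7% of all tested genes shared. In UBE2C this order rested on 443.5 FPKM in the first KO library against 443.67 FPKM in the first WT library. CDC20, the activator of the APC/C that the checkpoint holds back, was at 153 and 127 FPKM in KO and 227 and 239 FPKM in WT, and fell by 0.74 ± 0.12 (limma adjusted p = 0.0063). FBXO5, which encodes EMI1, an inhibitor of the APC/C, was at 10.6 and 12.8 FPKM in KO and 22.6 and 17.7 FPKM in WT, and fell by 0.73 ± 0.17 (adjusted p = 0.0174). ESPL1, which encodes separase, the protease that cuts cohesin, was at 15.3 and 12.4 FPKM in KO and 19.4 and 20.3 FPKM in WT, and fell by 0.49 ± 0.15 (adjusted p = 0.0425). An activator and an inhibitor of the APC/C and the protease separase thus all had lower RNA levels in KO. PTTG1, the securin gene, was at 214 and 162 FPKM in KO and 216 and 236 FPKM in WT (-0.27 ± 0.15), and UBE2C, the ubiquitin-conjugating enzyme gene and the most abundant of the 59, at 443.5 and 430.3 FPKM in KO and 444 and 488 FPKM in WT (-0.091 ± 0.10), and neither passed, except PTTG1 without the first KO library. FBXO5 did not pass without the first KO library (adjusted p = 0.0748) or the first WT library (0.0859), and ESPL1 passed only without the first KO library among these 4 fits.

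The APC/C itself and its other enzymes moved in both directions, with 3 rises and 3 falls among 17 genes, beside 16.2% and 10.8% of all genes. With single libraries left out there were 0 to 2 rises and 2 or 3 falls. UBE2S, which extends ubiquitin chains on APC/C substrates, was at 412 and 342 FPKM in KO and 664 and 663 FPKM in WT, and fell by 0.82. The core subunit gene CDC23 was at 13.4 and 13.1 FPKM in KO and 22.8 and 21.6 FPKM in WT, and fell by 0.70, and CDC26 fell by 0.62. ANAPC16 (0.68), ANAPC5 (0.43) and the enzyme gene UBE2D1 (0.52) rose.

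Of the 10 genes of chromosome structure and the nuclear envelope, TOP2A rose and NCAPD2 fell, beside 16.2% of all tested genes higher and 10.8% lower. TOP2A, the topoisomerase that untangles sister chromatids, was at 112 and 117 FPKM in KO and 88.3 and 63.6 FPKM in WT, and rose by 0.60 ± 0.16 (limma adjusted p = 0.0292). NCAPD2, a subunit of condensin I, was at 62.4 and 46.8 FPKM in KO and 77.7 and 85.1 FPKM in WT, and fell by 0.58 ± 0.15 (adjusted p = 0.0292). The remaining condensin subunits did not pass and stood on both sides of 0: NCAPH at 20.1 and 14.3 FPKM in KO and 24.1 and 24.9 FPKM in WT (-0.50 ± 0.17), NCAPG at 24.7 and 31.6 FPKM in KO and 22.0 and 14.4 FPKM in WT (0.62 ± 0.21), SMC2 with a log2 fold change of 0.53 and SMC4 of 0.44. Without the first WT library NCAPG, SMC2 and SMC4 were called higher (adjusted p 0.0249, 0.0165 and 0.0263), and without the first KO library NCAPH was called lower (0.0275). In condensin II, NCAPD3 was at 19.5 and 17.7 FPKM in KO and 33.7 and 31.5 FPKM in WT, and fell by 0.78, as did LMNB2, a lamin gene, by 0.65. MKI67, the proliferation marker Ki-67, was at 31.9 and 26.4 FPKM in KO and 30.9 and 27.6 FPKM in WT, so the groups overlapped (-0.0088 ± 0.14, adjusted p = 0.970). HMGB2, CDCA2 and LMNB1 ranged from -0.095 to -0.062 and did not pass. TOP2A passed without the first WT library but not without any other single library (adjusted p 0.0650 to 0.154), and NCAPD2 only without the first KO library.

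No cytokinesis gene passed limma's test, and of the 4 genes ECT2 had an unadjusted p under 0.05 (0.026). ECT2, the exchange factor that activates RHOA at the division plane, was at 46.8 and 48.5 FPKM in KO and 40.3 and 24.2 FPKM in WT (0.59 ± 0.22, limma adjusted p = 0.0781). It was called higher without the first WT library (0.95, adjusted p = 0.0144), whereas its log2 fold change was 0.235 without the second. ANLN was at 64.8 and 74.3 FPKM in KO and 73.0 and 45.3 FPKM in WT, PRC1, the midzone bundling protein gene and the highest of this group, at 136 and 117 FPKM in KO and 143 and 139 FPKM in WT (-0.16 ± 0.12), and RACGAP1 had a log2 fold change of -0.081. In ECT2 and ANLN the WT libraries differed by 0.72 and 0.68 on the log2 scale.

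The genes around CDK1 and of S phase give the setting of these changes. CDK1 was at 104 and 132 FPKM in KO and 79.8 and 68.4 FPKM in WT, and rose by 0.66. The value was 0.35 after GC correction, and the call was lost with the second WT library (limma adjusted p = 0.0815) or the second KO library (0.0679) left out. Cyclin A2 (CCNA2) was at 47.0 and 49.3 FPKM in KO and 49.1 and 42.8 FPKM in WT (0.070, limma adjusted p = 0.700). PKMYT1, a membrane-bound kinase that inhibits CDK1, fell by 0.56 and CDC14B by 0.50, and ENSA, a phosphatase inhibitor of mitosis, rose by 0.42. So 2 of 14 tested genes of the CDK1 switch rose and 2 fell, beside 16.2% of all genes higher and 10.8% lower. Both counts were smaller with any single library left out. Of 13 cohesin genes 0 passed limma's test, while 3 were higher (ESCO1, ESCO2 and PDS5A) and 1 lower (CDCA5) at an unadjusted p under 0.05, and 4 rose without the first WT library. Of 42 S phase genes 9 fell and 0 rose by limma (0 were higher at an unadjusted p under 0.05), beside 10.8% of all genes lower and 16.2% higher. The falls numbered 3 and 2 without the first and the second WT library, and 5 without either KO library. Among the 9 were UHRF1 at 41.9 and 41.3 FPKM in KO and 73.8 and 68.1 FPKM in WT (-0.76) and RRM2 at 66.4 and 61.5 FPKM in KO and 109 and 107 FPKM in WT (-0.75). The 101 tested mitotic genes outside the 59 split into 12 rises and 12 falls, beside 16.2% of all genes higher and 10.8% lower. Their median log2 fold change was 0.12, against 0.074 over all tested genes.

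The libraries of a group differed in these genes. Between the KO libraries 38 of the 59 genes were lower in the second, with a median difference of -0.16 on the log2 scale against 0.014 over all tested genes, and CENPA (-0.80), BUB1 (-0.71) and PLK1 (-0.61) were at least 0.5 lower. Between the WT libraries 9 genes were at least 0.5 lower in the second, from CENPE (-1.07), CENPF (-0.88) and SMC2 (-0.86) to DLGAP5 (-0.55). Over the 59 genes, however, the median difference between the WT libraries was -0.012, against 0.029 over all tested genes. Its median size regardless of sign was 0.13 in the 59 genes and 0.15 over all tested genes. Between the KO libraries the median size was 0.25 in the 59 genes, against 0.15 over all tested genes. Summed over the 59 genes the FPKM were 4715 and 4289 in KO and 4974 and 4971 in WT.

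**Figure D3:**
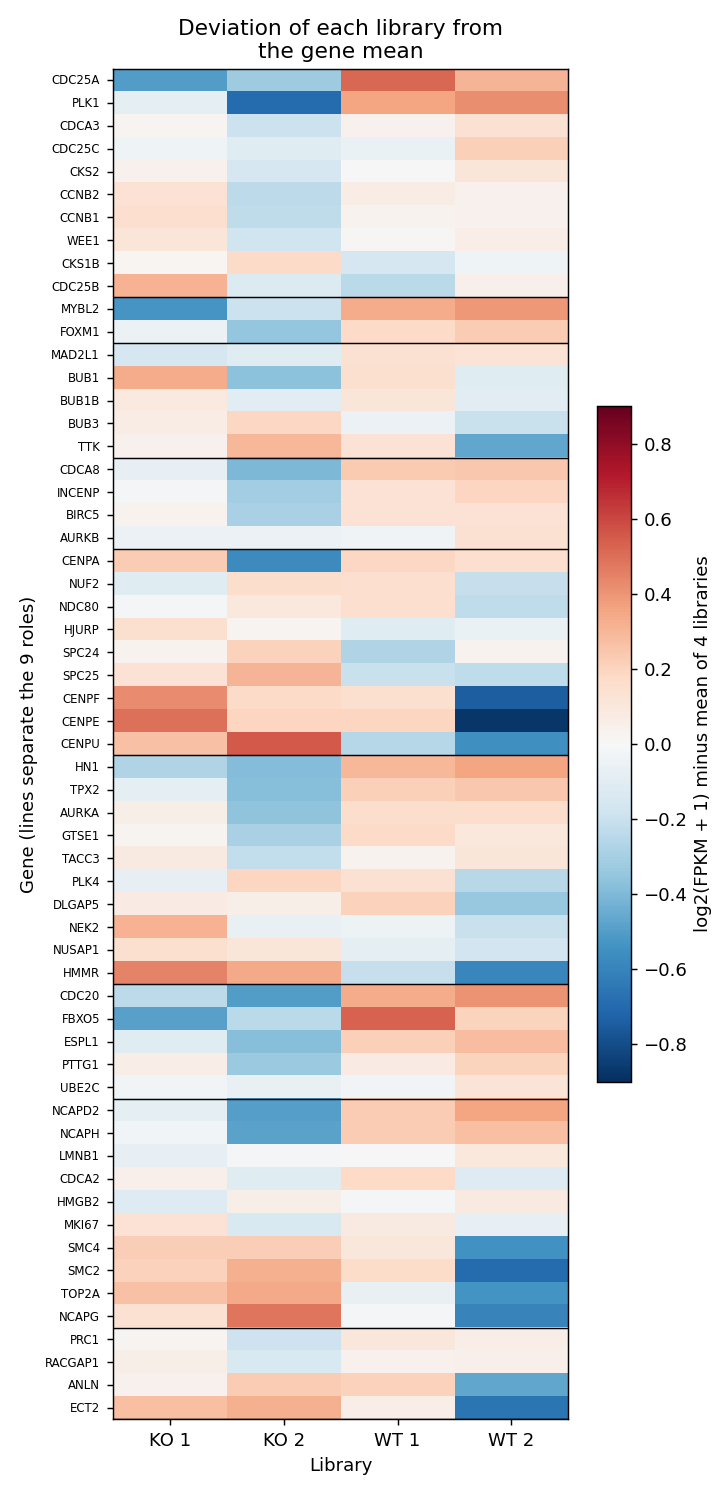
Deviation of log2(FPKM + 1) of each library from the mean of the 4 libraries, for the 59 genes in the order of their roles. The second WT library is the lowest in CENPE, CENPF, SMC2 and ECT2, and the second KO library is the lowest in PLK1, CENPA and BUB1.

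These differences went with the base composition of the transcripts. Across the 59 genes the log2 fold change of KO over WT correlated with transcript GC content at r = -0.65 (Spearman -0.69), against r = -0.13 over the 11470 tested genes with a GC value. The difference between the second and the first WT library correlated with GC content at r = 0.73 in the 59 genes and 0.56 over all tested genes, and with log length at -0.55 and -0.34. For the KO libraries the correlation with GC content had the opposite sign, at r = -0.38 in the 59 genes and -0.33 over all genes. With log length it was -0.014 and -0.17. The 4 genes that rose had a GC content of 37.2% to 40.0% and the 10 that fell a median of 52.1%, with FBXO5 at 38.5% the lowest of them. Genes are not independent and share these 4 libraries, so the correlations describe these libraries. After removing the GC trend of each library, an alternative chosen after seeing the data, 3 members rose and 13 fell, beside 17.2% of all genes higher and 17.5% lower. CENPU (0.59), HMMR (0.52) and TOP2A (0.39) still rose with smaller values, SPC25 (0.24, limma adjusted p = 0.125) did not pass, the 10 falls stayed, and FOXM1, NCAPH and MAD2L1 fell as well.

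**Figure D4:**
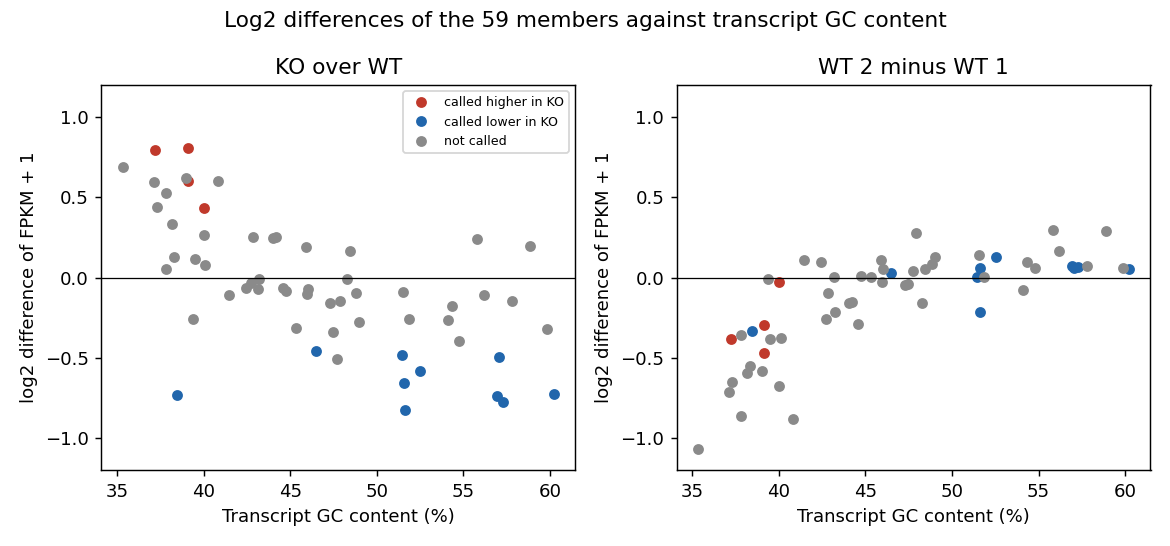
Log2 difference of FPKM + 1 against transcript GC content (percent) for the 59 genes, for KO over WT on the left and for the second minus the first WT library on the right, coloured by the call for KO against WT. The points descend with GC content on the left (r = -0.65) and climb with it on the right (r = 0.73), with FBXO5 as the low-GC gene among those called lower.

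The mature microRNA has no row in the table and was not analysed here. Its sequence is shown because its seed defines the letters sought in the members' transcripts. The mature microRNA lies at chr6:134979355-134979378 on the minus strand (RefSeq, GRCh38.p14), with the seed, bases 2 to 8, in capitals.
hsa-miR-3662: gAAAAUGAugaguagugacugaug
For each gene the longest 3′ UTR in GENCODE 29 was searched for the matching letters TCATTTT. They were in 12 of the 59 genes (20.3%, median UTR length 829 bases), against 34.0% of 10865 tested genes (median 1632 bases). Among the 12 were TOP2A of the genes that rose and none of the genes that fell. The others, ANLN, BIRC5, BUB3, CCNB1, CDC25B, CENPE, MAD2L1, MKI67, NUSAP1, RACGAP1 and TTK, did not pass the test. The first site in the UTR of BUB3, which held 4 matches, and the site of TOP2A are shown with their flanks, the match in capitals.
TOP2A: gagctattagatTCATTTTgggaaatc
BUB3: aacctcctaataTCATTTTgtgactgt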

How the data were processed

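RNA of 2 KO and 2 WT libraries of MDA-MB-231 cells was analysed. Per the file headers, the authors deposited 1 FPKM value for each gene in each library. The submitters' processing notes name hg38, HISAT, StringTie, Cufflinks and GATK, without their roles or versions. A library's groups came from its sample labels. The table has no counts, and a scan of low values (0.6 FPKM or less) gave at most 56.4% whole reads within 0.15 read, so depth is unknown and no interval from counting was possible.

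The log2(FPKM + 1) values were compared with limma 3.58.1 in R 4.3.3 (mean-variance trend, no covariates) over genes at 1 FPKM or more in at least 2 libraries, with Benjamini-Hochberg adjustment over all 11786 tested genes and a threshold of 0.05. A fold change on this scale understates low genes. The fit was tested on simulated data. Python 3.11.15 and pandas 2.3.3 were used for the tables. A total of 11 symbols that a spreadsheet had turned into dates were restored.

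GC content, length and 3′ UTRs came from GENCODE 29 transcripts, and promoters, gene names and the microRNA from RefSeq (GRCh38.p14), with 59 of 59 members matched. The members and the wider gene lists were chosen with earlier results of these data known. Named genes were every called member, per role the member with the highest mean FPKM and that with the smallest p, 12 well-known mitotic genes, per wider list the 2 genes with the smallest p, CDK1, CCNA2 and HBP1. The other genes named were chosen after their values were seen. The values of 1 gene in these lists are not reported here.

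The alternatives were a pseudocount of 0.1, no filter, a filter of 5 FPKM, scaling by the median of ratios, rescaling to TPM, no trend, each library left out, and the replicate number as a block. A GC correction (a smooth trend of each library on transcript GC removed) and a crossed block were added after seeing the data.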

Additional observations from a re-analysis of the deposited data

How the results depend on the processing

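With 2 libraries per group, calls near the threshold depend on single libraries, and the depth of the FPKM values is unknown. Without a filter on low values limma called 0 members higher and 0 lower (5 and 12 at an unadjusted p under 0.05). Of all 19833 genes tested in that fit, 290 (1.46%) were called higher and 235 (1.18%) lower, so calls were few among all genes. The cause was not tested. Leaving out each library in turn gave 0 to 9 members higher and 4 to 14 lower, and 762 to 1373 of all genes higher and 551 to 866 lower, in fits where a lone library is assumed to vary like the other group. After GC correction 2004 of all genes were lower. Over the 30 named members and 11 alternatives, 268 values kept direction and side of the threshold, 49 lost and 6 gained a call, and 7 turned sign. Those that turned sign concerned genes not called: over the fits that leave out a library, the log2 fold change ran from -0.39 to 0.32 for BUB1, -0.26 to 0.12 for CCNB1, -0.29 to 0.077 for CCNB2, -0.15 to 0.023 for HMGB2 and -0.14 to 0.12 for MKI67. CCNA2 ran from -0.026 to 0.17 in these fits and was at -0.070 after GC correction. Scaling by the median of ratios moved the median log2 fold change of all genes to 0.013, against 0.074 unscaled, and the higher share of all calls to 49.1%, against 59.9%.

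Same-numbered KO and WT libraries did not deviate together (correlation -0.177 across tested genes). Because genes are not independent and share 4 libraries, this value cannot settle whether the numbers pair the libraries. With the replicate number as a block, 7 members (11.9%) rose and 9 (15.3%) fell, among 1756 (14.9%) and 1108 (9.4%) of all genes. The block called CENPE, CENPF, ECT2 and NCAPG higher beside CENPU, HMMR and TOP2A. With it SPC25 (limma adjusted p = 0.0656) was no longer called higher, nor ESPL1 (0.0642) lower. With the numbers crossed, 6 members (10.2%) rose and 12 fell, among 2515 (21.3%) and 1655 of all genes.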
